A study of Mus musculus with 2 samples.

Results

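The MAX network is a set of transcription factors that bind the DNA sequence CACGTG, the E-box, as pairs. It was followed here as the 10 genes Myc, Mycn, Mycl1, Max, Mxd1, Mxd3, Mxd4, Mxi1, Mnt and Mga, chosen by their symbols, and each matched 1 of the 23309 rows of a deposited gene table. The cells were mouse bone marrow progenitors, lineage-depleted, of the genotype Cebpaf/f;CreER. They carried the retroviral vectors MIGR1-HA-Hoxa9 and MIGR1-Flag-Meis1, encoding a pair of homeodomain proteins that transform progenitors together, and grew with IL3. For 72 h they received EtOH, the vehicle (the first condition), or 5 nM 4OHT, 4-hydroxytamoxifen (the second). 4OHT activates CreER, which removes the loxP-flanked Cebpa gene of the myeloid transcription factor C/EBPα. Both conditions share the floxed alleles, CreER and both retroviruses. 4OHT and Cre activity come together with the loss of Cebpa, partial at the transcript level, so their effects cannot be told apart here.

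MAX is the shared partner of the network. MYC proteins (c-Myc, N-Myc and L-Myc, from Myc, Mycn and Mycl1) pair with MAX and activate genes of growth, ribosome production and metabolism. MXD proteins (from Mxd1, Mxd3, Mxd4 and Mxi1), MNT and MGA pair with MAX as well, occupy E-boxes, and mostly repress. In blood, c-Myc and N-Myc both act in stem and progenitor cells, while in granulocyte development Myc is turned down and Mxd1 is turned up. C/EBPα has been described as a repressor of Myc that acts through an E2F site.

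Each condition has 1 deposited sample, which joins 2 replicates, which leaves 1 number per gene and condition and no replicate spread. Values are in FPKM, fragments scaled by transcript length and depth, so that levels of different genes can be set side by side. A gene was called, and is said to have risen or fallen, where the authors' deposited table marks it as tested with q under 0.05. The table holds no read counts. Among all rows with nonzero values in both conditions, 69 share a single ratio of 4OHT to vehicle FPKM, 0.853, to within 0.0002 log2 units. At 2 and 0.5 times it lie 25 and 13 more rows. Rows with equal fragment numbers in both conditions would give such steps, and 1 fragment then stands for less FPKM under 4OHT, as with 1.17 times the depth. The absolute depth remains unknown. Cebpa itself fell from 109 to 42.8 FPKM, and the authors' deposited table gives q = 0.00165. That left 39.25% of its vehicle level, so Cebpa transcript was lowered but not absent under 4OHT. How the remainder was spread over the cells was not measured.

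Of the 10 genes, 9 were tested and 9 reached 1 FPKM. Mycn rose, none fell, and 8 tested genes did not pass. Of all 11953 tested rows, 5.91% were called in either direction, 2.8% higher and 3.11% lower. With 1 call, the share among the members, 11.1% of 9, rests on Mycn alone. At an unadjusted p under 0.05 the same count of 1 was reached, against 12.3% of all tested rows. Mycn was also the 1 member called at q under 0.01 and at q under 0.1, against 3.84% and 7.08% of tested rows. It was the 1 member of at least 1 FPKM that differed 2-fold, or 1.5-fold, against 3.54% and 7.89% of all such rows. The submitters' processing notes name Cuffdiff without a role. The deposited p-values of tested rows go in steps of 5e-05, as resampling would give, and which test made the printed q values is not known.

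Mycn was the member that changed, and its upstream DNA is shown for that reason. The stretch shown lies upstream of the starts given for Mycn by RefSeq and by GENCODE, at chr12:12941937-12942086 of GRCm38.p6, minus strand, from the RefSeq promoter table. It begins 250 bases before the RefSeq start. Capitals mark letters that match TTTCGCGC or TTTGGCGC, motifs of E2F factors, on either strand.
Mycn: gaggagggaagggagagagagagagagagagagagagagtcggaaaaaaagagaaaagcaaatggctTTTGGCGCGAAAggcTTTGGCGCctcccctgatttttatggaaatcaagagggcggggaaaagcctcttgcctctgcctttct
The 3 matches begin 183, 179 and 168 bases before the RefSeq start, and the first and the middle match overlap. Of 32851 promoters of the same 250 bases in the table, 0.654% hold such a match. Gene and motif were both chosen with the expression values known, so this share is background and not a test. Mycn held no CACGTG and no TTGCNNAA, a short form of the C/EBP motif, in its 250 bases.

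Promoters of 9 of the 10 genes, all but Myc, were in the table, Mycl1 under its present symbol Mycl, with several starts for Mxi1. Across all promoters, 6.02% held CACGTG and 9.56% held TTGCNNAA on either strand. Among these 9 genes the E2F letters were found for Mycn alone, CACGTG for Mnt and Mxd4, and TTGCNNAA for Mxd4. The windows of 30 bases around the CACGTG and TTGCNNAA matches are shown because the network's own proteins bind CACGTG and C/EBP factors TTGCNNAA.
Mnt, CACGTG: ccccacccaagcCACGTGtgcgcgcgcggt
Mxd4, CACGTG: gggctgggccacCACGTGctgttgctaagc
Mxd4, TTGCNNAA: gccagtccctaTTGGGCAAggctagacaag
They lie at chr11:74830789-74830818 on the plus strand and, for Mxd4, at chr5:34187912-34187941 and chr5:34187793-34187822 on the minus strand of GRCm38.p6. These matches describe letters only, the motifs were chosen with the expression values known, and binding was not measured.

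Among the activators, Mycn, the gene of N-Myc, stood at 5.77 FPKM under vehicle and 13.8 FPKM under 4OHT. It was 2.39 times higher after 4OHT, a rise of 1.26 on the log2 scale, and the authors' deposited table gives q = 0.00165. That q is the smallest in the table and is shared by 363 rows. Among the 295 rows of at least 1 FPKM that rose, Mycn ranked 27 by log2((4OHT FPKM + 1)/(vehicle FPKM + 1)). Of 3819 other tested rows within 2-fold of its mean level, 1.15% had a log2 ratio at least as large in either direction. Its deposited locus is on chromosome 12 of mm9, 12942899 to 12948642.

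No gene beside Mycn was called. Within 1 Mb of Mycn on mm9 lie Ddx1, which encodes an RNA helicase, Nbas, a gene of vesicle traffic, Fam49a, and the clone 4921511I17Rik. Ddx1, 278 kb away, had 87.7 FPKM under vehicle and 88.2 FPKM under 4OHT. Nbas had 6.14 and 6.06 FPKM, and Fam49a 2.12 and 1.99 FPKM. All 3 have q = 1.00 in the authors' deposited table when rounded. The clone was listed at 0 and 0.0264 FPKM and was not tested. Mycs, an intronless relative of Mycn on chromosome X, was listed at 0 in both conditions.

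Myc, the gene of c-Myc, was the most abundant member by far. It had 209 FPKM under vehicle and 190.2 FPKM under 4OHT, above 95.7% of all rows of at least 1 FPKM in the vehicle sample. The difference was -9.19% of the vehicle level, a log2 ratio of -0.14, and the authors' deposited table gives q = 1.00 when rounded. Of 773 other tested rows within 2-fold of its level, 33.4% had a ratio at least as far from 1, and the smallest log2 change called among them was 0.49. A change of Myc smaller than that could therefore have gone uncalled, and the missing call does not show that Myc was equal in both conditions. Its locus is on chromosome 15 of mm9, 61816896 to 61821916. Pvt1, the long noncoding RNA gene 47.6 kb beyond it, had 3.26 and 3.93 FPKM, and the authors' deposited table gives q = 0.918. Of the other rows within 1 Mb, H2afy3 had 0.0348 and 0.0381 FPKM, D030024E09Rik was listed at 0 in both conditions, and neither was tested.

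Mycl1, the gene of L-Myc, had 0.0323 FPKM under vehicle and 0.149 FPKM under 4OHT (chromosome 4 of mm9, 122673342 to 122679723). The authors' deposited table did not test it, and no fold is drawn from values so low. Neither condition came near the level of the other MYC genes.

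Added up, the MYC genes had 215 FPKM under vehicle and 204 FPKM under 4OHT. Mycn supplied 2.68% of the sum in vehicle cells and 6.75% after 4OHT, and Myc 97.3% and 93.2%. Myc transcripts outnumbered Mycn transcripts 36.3 to 1 in vehicle cells and 13.8 to 1 after 4OHT. In FPKM, Mycn gained 8.01 and Myc was 19.2 lower, so the sum did not go up with Mycn. These sums describe 1 sample per condition and were not tested.

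Max, the shared partner, was the tested member with the log2 ratio nearest to 0. It had 54.9 FPKM under vehicle and 53.7 FPKM under 4OHT, a log2 ratio of -0.03, and the authors' deposited table gives q = 1.00 when rounded. Its locus is on chromosome 12 of mm9, 78038256 to 78063235. Of tested rows within 2-fold of its level, 79.4% differed by at least as much. The MYC family sum was 3.92 times the Max level in vehicle cells and 3.80 times after 4OHT. The sum over the 6 MXD, MNT and MGA genes was 1.28 and 1.40 times the Max level. All partners together stood at 5.20 times Max in vehicle cells and 5.21 times after 4OHT. Protein levels and pairing were not measured.

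**Figure D1:**
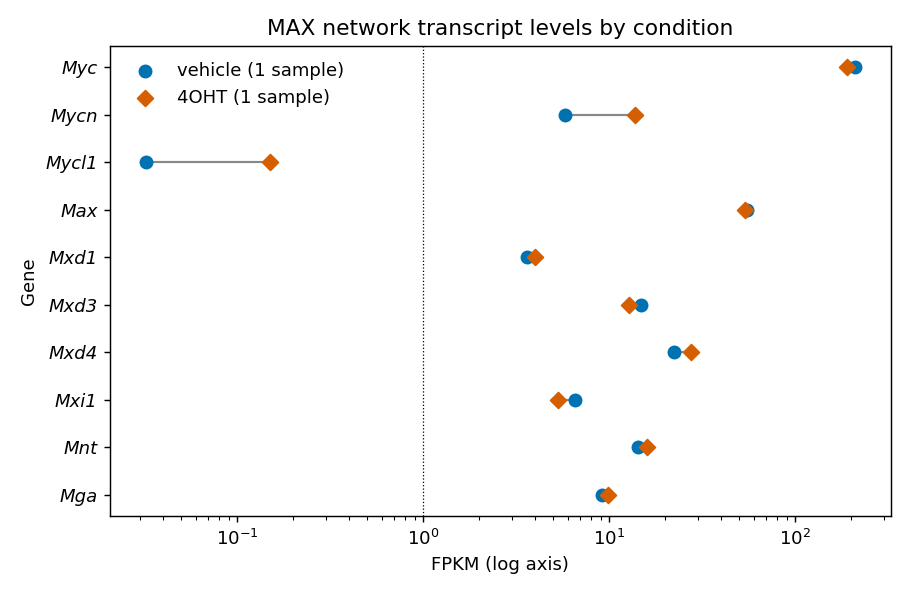
Level of each MAX network gene in FPKM on a log axis, with a circle for the vehicle sample and a diamond for the 4OHT sample, and a dotted line at 1 FPKM. Mycn moves from 5.77 to 13.8 FPKM, Mycl1 lies below 1 FPKM in both samples, and the marks of the other 8 genes lie close together.

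Among the repressors, none of the 4 MXD family genes passed the test. Mxd4, which encodes MXD4, was the most abundant, with 22.2 FPKM under vehicle and 27.5 FPKM under 4OHT (chromosome 5 of mm9, 34519229 to 34530359). Its log2 ratio of 0.31 was the largest in size among the 8 tested members other than Mycn, and q was 0.587 in the authors' deposited table. At its level the smallest log2 change called was 0.47, so its difference was smaller than any called at that level.

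Mxd3, a family member tied to dividing cells, had 14.7 FPKM under vehicle and 12.8 FPKM under 4OHT (chromosome 13 of mm9, 55423416 to 55431091). Mxi1, also known as MXD2, had 6.51 and 5.32 FPKM, a log2 ratio of -0.29, and the authors' deposited table gives q = 0.645 (chromosome 19 of mm9, 53384996 to 53450300). Mxd1, the member linked to granulocyte maturation, was the lowest of the family at 3.60 and 4.01 FPKM (chromosome 6 of mm9, 86597039 to 86619153). Thus Mxd4 and Mxd1 had the larger value after 4OHT, and Mxd3 and Mxi1 the smaller. The 4 genes summed to 47.0 FPKM under vehicle and 49.6 FPKM under 4OHT, and the part of Mxd4 in that sum was 47.1% and 55.5%.

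Mnt, the repressor present in both dividing and resting cells, had 14.35 FPKM under vehicle and 15.9 FPKM under 4OHT (chromosome 11 of mm9, 74644426 to 74659227). Mga, a large protein with a T-box domain besides the MAX-pairing domain, had 9.09 and 9.89 FPKM (chromosome 2 of mm9, 119722964 to 119795317). Mnt, Mga, Mxd1 and Mxd3 have q = 1.00 in the authors' deposited table when rounded. Summed over MXD, MNT and MGA genes, the level was 70.5 FPKM under vehicle and 75.4 FPKM under 4OHT. The MYC sum was 3.06 times this sum in vehicle cells and 2.71 times after 4OHT, a ratio at 88.6% of the vehicle one. Of the genes in this ratio only Mycn was called, and it rose. The lower ratio rests on differences of genes that were not called, such as Myc and Mxd4, and was not tested.

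In vehicle cells the order of levels was Myc, Max, Mxd4, Mxd3, Mnt, Mga, Mxi1, Mycn, Mxd1 and Mycl1. After 4OHT it was Myc, Max, Mxd4, Mnt, Mycn, Mxd3, Mga, Mxi1, Mxd1 and Mycl1, so that Mycn went from place 8 to place 5. With no spread, it cannot be said which neighbours in this order differ. The median log2 ratio, with 1 FPKM added to each value, was 0.11 over the 9 members of at least 1 FPKM and 0.00 over all 10989 such rows. Of the 9 tested members, 5 had the larger value after 4OHT and 4 the smaller.

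**Figure D2:**
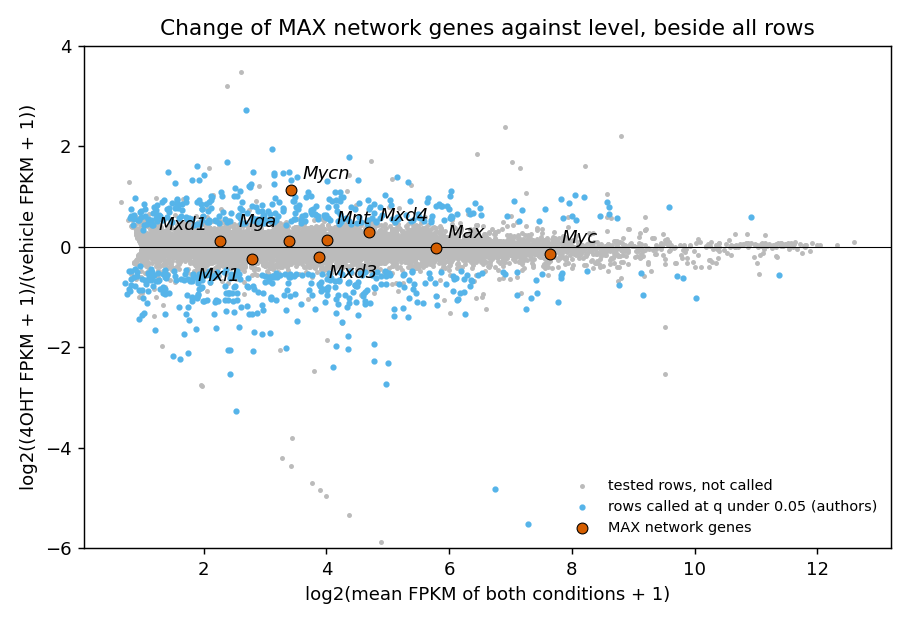
Log2((4OHT FPKM + 1)/(vehicle FPKM + 1)) against log2(mean FPKM + 1) for tested rows of at least 1 FPKM, grey where not called, light blue where called at q under 0.05 by the authors, and orange for the MAX network; 13 rows lie beyond the axis. Mycn sits among the called rows, and the other 8 tested members lie inside the grey band.

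The rows nearest to Mycn were found by distance in log2(FPKM + 1) over the 2 samples, among 681 called rows with a single symbol. They were Siglec5 (6.49 and 13.9 FPKM), Havcr2 (5.07 and 14.3 FPKM), Pdgfrb (6.62 and 13.3 FPKM), Plxdc2 (6.71 and 13.5 FPKM) and Gfi1b (5.31 and 15.6 FPKM), at distances of 0.15 to 0.20. Siglec5 and Havcr2 encode immune receptors, Pdgfrb a growth factor receptor, and Gfi1b a repressor of transcription that acts in erythroid and megakaryocyte cells. For Myc, among 10230 tested rows that were not called, the nearest were Aprt, Rpn1, Pecam1, Rab44 and Srp14, at distances of 0.02 to 0.04. With 2 samples, likeness means only a like level and a like ratio.

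Partners and regulators of the network were described with 7 lists of 69 genes, of which 68 were tested. None rose and 2 fell, Tfec and E2f2, or 2.94% of those tested, against 5.91% of all tested rows. The cofactor lists held no called gene. Coactivators of MYC numbered 13, with a median log2 ratio of 0.06, and their highest was Ruvbl2, an ATPase of chromatin complexes, at 146 and 135 FPKM. The log2 ratio farthest from 0 among them was -0.13, of Ccnt1, the cyclin of an elongation kinase, which had 15.7 and 14.3 FPKM. The 9 corepressor genes had a median of 0.07, and Hdac1, a histone deacetylase that MXD proteins recruit through SIN3, had 141 and 126 FPKM.

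The 9 partners of MGA in a variant Polycomb complex had a median of 0.01. Among them Cbx3, the highest by mean level, had 191 and 213 FPKM. Tfdp1, the dimer partner of E2F proteins, had 198 and 190 FPKM, and Rnf2, a ubiquitin ligase, 20.5 and 23.4 FPKM. The 13 genes of MYC protein turnover had a median of -0.03. Stub1, a ubiquitin ligase, had 56.6 and 55.1 FPKM, and Aurka, a kinase that shields N-Myc from breakdown, 52.5 and 43.7 FPKM, and the authors' deposited table gives q = 0.625. At an unadjusted p under 0.05, these cofactor and turnover lists, with 13, 9, 9 and 13 tested genes, held 0 genes, against 12.3% of all tested rows.

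The parallel MLX arm, in which MLX pairs with glucose-sensing relatives of MYC and with MXD proteins, had 4 tested genes. None was called, and 2 of the 4 had an unadjusted p under 0.05, against 12.3% of all tested rows. Mlx had 30.2 FPKM under vehicle and 21.7 FPKM under 4OHT, and the authors' deposited table gives q = 0.195. Arrdc4, a target of this arm, had 12.8 and 8.58 FPKM, and the authors' deposited table gives q = 0.244. Txnip, another target, had 84.7 and 84.0 FPKM, and Mlxip, the gene of MondoA, 15.3 and 15.5 FPKM. Mlxipl, at 0.0488 and 0.0229 FPKM, was not tested. The list median was -0.24, and -0.04 with the low gene Mlxipl counted.

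Among 9 other factors of the same domain type that bind E-boxes, Tfec fell from 63.9 to 29.0 FPKM, and the authors' deposited table gives q = 0.00165. Tfec is a relative of Mitf found in macrophages and other myeloid cells. The other 8 did not pass, and the list median was -0.07. Among 11 genes of the E2F and RB families, E2f2, an activating E2F, fell from 5.46 to 3.46 FPKM, and the authors' deposited table gives q = 0.0167. The other 10 did not pass, among them E2f4 with 84.7 and 84.4 FPKM, and the list median was 0.03.

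Known targets of MYC were described with 5 lists of 75 genes, all tested. Cdkn2b rose and Slc2a1 fell, together 2.67% of those tested, against 5.91% of all tested rows. Ribosome biogenesis, the best-known output of MYC, held no called gene among 22. None of the 22 had an unadjusted p under 0.05, against 12.3% of all tested rows. The median log2 ratio there was -0.01, and all 22 lay between -0.11 and 0.15. Npm1, nucleophosmin, had 1450.1 FPKM under vehicle and 1398 FPKM under 4OHT, and Wdr12, which acts in large subunit assembly, 38.8 and 43.1 FPKM.

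The 20 genes of nucleotide, one-carbon and polyamine synthesis likewise held no called gene, with a median of 0.02. Nme1, a nucleoside diphosphate kinase, had 242 and 262 FPKM. Amd1, of polyamine synthesis, is joined in 1 row with its copy Amd2 and was listed at 0.0203 and 8.35 FPKM, and the authors' deposited table gives q = 0.716. Reads of such copies cannot be assigned with certainty, and no change is drawn from that row. The 10 cell cycle targets held no called gene either, with a median of -0.05 over the 8 of at least 1 FPKM. At an unadjusted p under 0.05 stood 1 of these 10 and 0 of the 20 synthesis genes, against 12.3% of all tested rows. Cdk4 had 409 and 431 FPKM, and Ccne1, cyclin E1, 14.9 and 11.0 FPKM, and the authors' deposited table gives q = 0.213.

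Targets of glycolysis, transport and translation were lower after 4OHT by value in 15 of 15 genes, where 49.9% of all rows of at least 1 FPKM were lower. One of the 15 is a joined row of Eno1 and a copy, and without it 14 of 14 were lower. Their log2 ratios ran from -0.50 to -0.04, with a median of -0.13. Slc2a1, the glucose transporter GLUT1, was the 1 call among the 15, or 6.67%, against 5.91% of all tested rows. It fell from 32.3 to 22.6 FPKM, and the authors' deposited table gives q = 0.0332. At an unadjusted p under 0.05 the list held 3 of 15 genes, against 12.3% of all tested rows. The other target lists were more mixed by value. Of genes of at least 1 FPKM, 12 of 22 were lower for ribosome biogenesis and 9 of 20 for nucleotide, one-carbon and polyamine synthesis. For the cell cycle it was 5 of 8, and for genes repressed through MIZ1 or SP1 3 of 7. Of 8 genes that MYC represses through MIZ1 or SP1, Cdkn2b, the gene of the CDK inhibitor p15, rose from 7.70 to 12.8 FPKM, and the authors' deposited table gives q = 0.0158. The other 7 did not pass, and the median was 0.18 over the 7 of at least 1 FPKM.

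**Figure D3:**
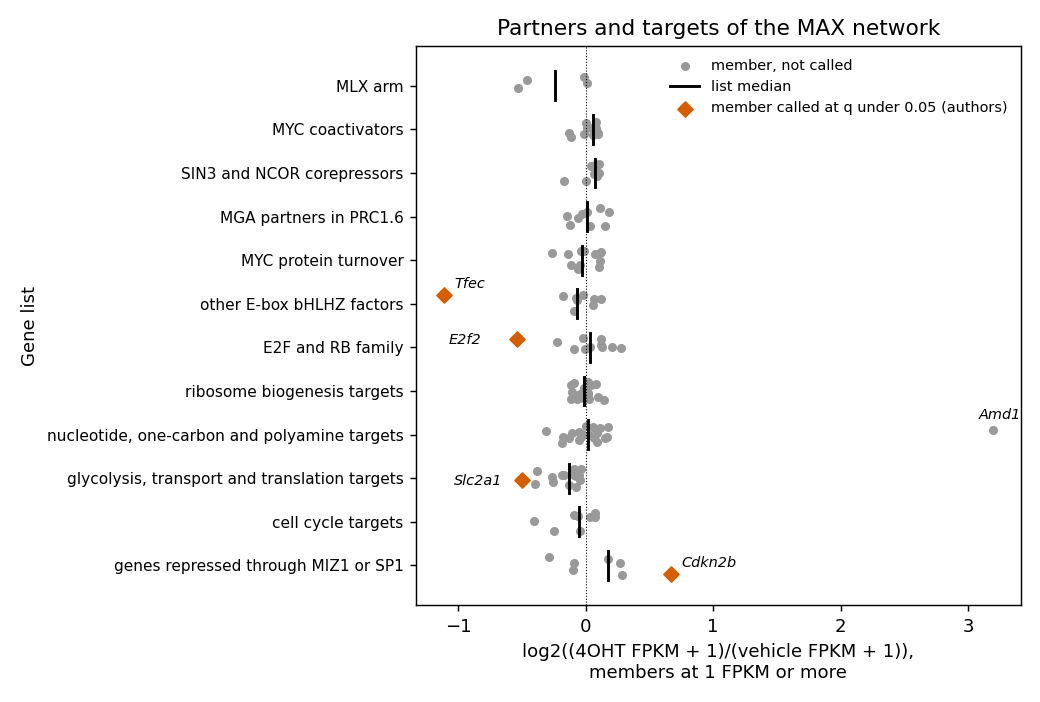
Log2((4OHT FPKM + 1)/(vehicle FPKM + 1)) of the partner and target genes of at least 1 FPKM, 1 point per gene, with a black bar for the median of each list and orange diamonds for genes called at q under 0.05 by the authors. Called genes are Tfec, E2f2, Slc2a1 and Cdkn2b, and the point far to the right is the joined row of Amd1 and Amd2.

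Markers of several cell types were called as well, some higher and some lower, where 2.8% of all tested rows rose and 3.11% fell. Of 7 progenitor markers, all tested, Cd34, Kit and Flt3 rose, none fell, and the summed level went from 620.0 to 836 FPKM. Of 11 neutrophil markers, 8 of them tested, 6 fell and none rose, and the sum went from 2416 to 1724 FPKM, with Camp listed at 0 in vehicle cells. Of 9 monocyte and macrophage markers, all tested, 6 fell and the call of 1 was higher, Mrc1, which stayed below 1 FPKM at 0.185 and 0.499 FPKM. Their sum went from 887 to 526 FPKM. Of 7 mast cell and basophil markers, 6 of them tested, 3 rose, none fell, and the sum went from 741 to 1222 FPKM. Of 8 erythroid and megakaryocyte markers, 5 of them tested, 1 rose, Itga2b, none fell, and the sum went from 53.5 to 102 FPKM. The 7 lymphoid markers reported, none of them tested, summed to 0.190 and 0.128 FPKM, with Pax5, Cd3e, Cd3g and Cd4 listed at 0 in both conditions. The 6 stromal and endothelial markers held only Pecam1, which blood cells also make, above 1 FPKM, with sums of 214 and 189 FPKM, and Col3a1 was listed at 0. In such bulk samples, fewer cells of a type and less RNA per cell cannot be told apart, and the part of cell makeup in the rise of Mycn and in the falls of Tfec, E2f2 and Slc2a1 was not tested.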

How the data were processed

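RNA of 2 samples, 1 per condition, was sequenced. Tools listed in the submitters' processing notes are Cuffdiff 2.0.2, Bowtie2 2.0.0.7 and CASAVA 1.8.2, without roles, on build mm9. The gene annotation, and whether libraries kept strand, are not given in the sources used here. Overlapping or antisense genes may therefore share reads. The authors deposited 1 FPKM value per gene and condition, per the file headers, with a status, a p-value and a q-value for each row of the authors' deposited table. The depth per sample is unknown, so no interval for counting error is given.

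From these, ratios, sums and log2 ratios with a pseudocount of 1 were computed with Python 3.11.15, pandas 2.3.3 and NumPy 2.4.6. The code for calls, folds and log2 ratios was run on a simulated table whose changes and q values were set beforehand. That run checks this code only. No test was run, since each condition has 1 value. The members and gene lists were chosen with earlier results of these data known. Of 199 list entries besides the members, 193 matched a row by symbol, 3 through a joined row and 3 by a synonym. A listed marker is not reported here. Named genes were all members, called list genes, otherwise the highest and the most changed of a list, rows within 1 Mb of Mycn and Myc, and the 5 rows nearest to each. Mycs, Mlx, Mlxip, Mlxipl and E2f4 were named after their values were seen, and Tfdp1 was named outside these rules. Coordinates of loci are mm9 with starts from 1, and promoter sequences are RefSeq's on GRCm38.p6. Alternatives were other q thresholds, fold thresholds, pseudocounts, scalings and level filters.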

Additional observations from a re-analysis of the deposited data

How the results depend on the processing

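The call of Mycn, as the 1 member higher with none lower, held at q under 0.01 and under 0.1 and at 2-fold and 1.5-fold thresholds without q. Under pseudocounts of 0 and 0.1 and after scaling by the FPKM total or by the median ratio, its log2 ratio ran from 1.13 to 1.26 and that of Myc from -0.14 to -0.12. Under these 4 alternatives no member changed direction. At q under 0.01 the partner and target lists held 0 genes higher and 1 lower of 143 tested, against 3.84% of all tested rows. Of 36 alternative list medians, 34 moved by at most 0.1. The other 2 came from dropping the filter on low values, with -0.04 for the MLX arm and 0.04 for the genes repressed through MIZ1 or SP1. No paired analysis was possible because each condition has 1 sample that joins replicates 1 and 2, and for the same reason no replicate could be left out.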
